A study of Mus musculus with 4 samples.

Results

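Collagen chain genes were defined as the protein-coding genes of the count table whose symbol in the mm9 annotation is Col, a type number, the letter a and a chain number. This rule gave 43 of the 37620 genes in the table. They were grouped into 11 fibrillar, 6 basement membrane (type IV) and 26 other collagen genes. The RNA came from mouse embryonic stem cells (mESCs) of the lines WT_CTCF and MUT_CTCF, each with 2 libraries. Both lines descend from CTCF-mAID mESCs, in which endogenous CTCF carries a tag and is degraded when auxin is added, so both lack their own CTCF in the presence of auxin and live on CTCF expressed from a vector. That CTCF is wild type in WT_CTCF mESCs, and in MUT_CTCF mESCs it is mutated at T668, a form that the study calls O-GlcNAc-deficient. Each line is 1 picked clone, so a difference between clones and an effect of the mutation cannot be told apart. Per the study's methods, the picked clones were kept in auxin before they were used in functional experiments. The cells were grown with serum and LIF on gelatin, a product of denatured collagen.

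Collagens are secreted or membrane-bound proteins in which chains wind around each other into a triple helix. The helix requires glycine, the smallest amino acid, at each position that faces its core, which gives a chain its repeat of triplets that open with glycine. Fibrillar collagens form the striated fibrils of connective tissue, type IV collagens form the sheet of basement membranes, and the others decorate fibrils, form beaded filaments or span the cell membrane. Basement membrane components are among the first matrix proteins made in the early embryo, and embryonic stem cells are known to make them.

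In short, collagen RNA of these mESCs was mostly that of 5 genes, and the summed counts overlapped between the lines both with and without Col18a1. Col18a1, Col9a2, Col4a1, Col5a1 and Col4a2 held 82.9% of all collagen counts. Col18a1, whose product is the precursor of endostatin, was the 1 member with an adjusted p under 0.05 and was 9.36% lower in MUT_CTCF mESCs. Col3a1 was the 1 member past the criterion of the study's methods, p under 0.05 before adjustment and more than 2-fold difference. It rested on 26 counts or fewer per library. Only in WT_CTCF mESCs, where Col3a1 was higher, did both libraries reach the minimum of the filter on low counts. Among the genes that hydroxylate and cross-link collagen, P4ha1, P4ha2 and Loxl2 were higher in MUT_CTCF mESCs at an adjusted p under 0.05.

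The glycine repeat was read from the coding sequences of the GENCODE M1 annotation of mm9, to show what the members share beyond their names. A run was counted where at least 5 glycine codons followed each other at a spacing of 3 codons. All 43 members had such runs, between 2 and 24 per gene. In the following stretches, each 20 codons long and taken from the start of the longest run of its gene, the capitals mark the glycine codon that opens each triplet. Col3a1 and Col5a2 are shown for the fibrillar type, Col4a1 for type IV, and Col18a1 and Col9a2 as the most abundant members.
Col3a1, codons 164 to 183: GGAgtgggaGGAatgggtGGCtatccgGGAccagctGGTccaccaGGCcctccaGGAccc
Col5a2, codons 211 to 230: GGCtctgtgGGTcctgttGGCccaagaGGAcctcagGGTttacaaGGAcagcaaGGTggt
Col4a1, codons 43 to 62: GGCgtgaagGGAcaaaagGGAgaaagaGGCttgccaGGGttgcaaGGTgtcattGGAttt
Col18a1, codons 953 to 972: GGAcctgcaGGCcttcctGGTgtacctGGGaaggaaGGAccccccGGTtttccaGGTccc
Col9a2, codons 180 to 199: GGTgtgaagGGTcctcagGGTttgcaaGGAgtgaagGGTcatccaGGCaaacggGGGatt
Each stretch opens every triplet with a glycine codon.

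The groups differed in how long the repeat ran without a break. In fibrillar collagen genes the longest run had 216 to 344 triplets, with a median of 338, and each gene had 2 or 3 runs. In type IV genes the longest run had 39 to 66 triplets, and the repeat was broken into 16 to 24 runs. Col18a1 had 13 runs, the longest of 30 triplets, and only 27.9% of its codons lay in runs. Col12a1, a fibril-associated chain, had the smallest share, 7.63% of its codons. The gene structure followed the same division. Of the internal coding exons of fibrillar genes, 48.6% were exactly 54 bases long, or 6 triplets of codons, compared with 4.23% in type IV genes.

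**Figure D1:**
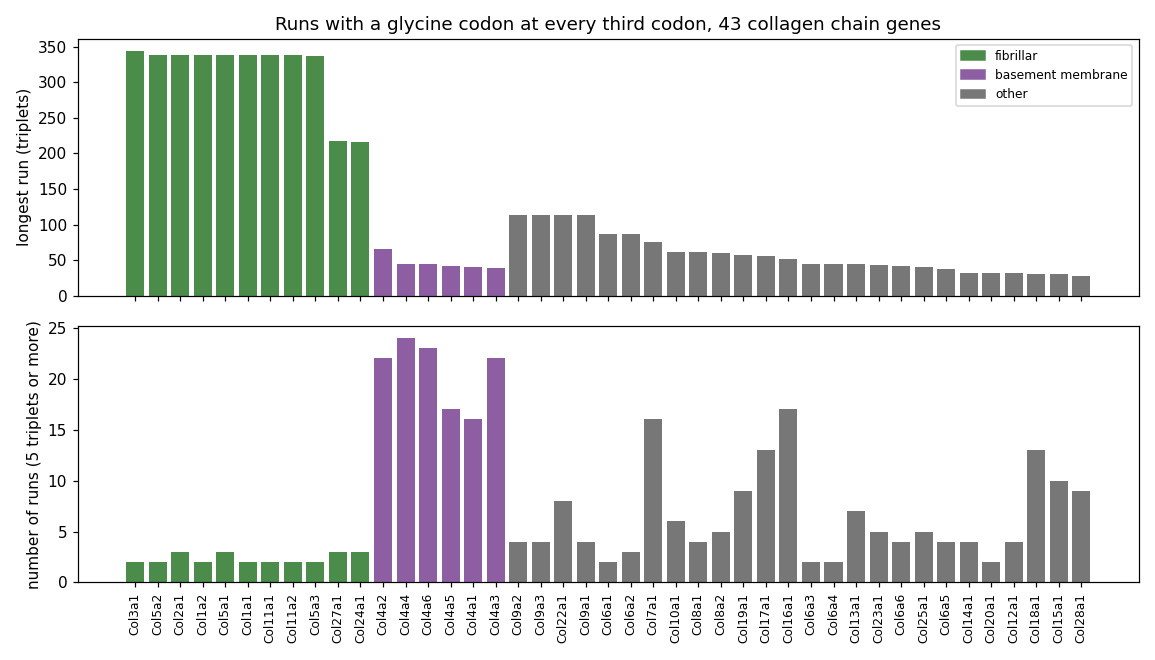
Longest run of triplets that open with a glycine codon (upper panel) and number of runs of at least 5 triplets (lower panel) in the coding sequence of each of the 43 collagen chain genes, coloured by group. The 11 fibrillar genes have long runs of 216 to 344 triplets and only 2 or 3 of them, whereas the 6 type IV genes have 16 to 24 short runs.

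The type IV genes lie in head-to-head pairs. In mm9, Col4a1 (chr8:11198423-11312826, minus strand) and Col4a2 (chr8:11312805-11449287, plus strand) share the 22 bases in which both first exons begin, Col4a4 and Col4a3 have 71 bases between their starts on chromosome 1, and Col4a6 and Col4a5 have 1308 bases between theirs on the X chromosome. The shared bases of the first pair and the gap of the second are given on the plus strand of mm9, because each holds both start sites or lies between them.
Col4a1 and Col4a2, chr8:11312805-11312826: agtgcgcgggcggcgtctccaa
Col4a4 and Col4a3, chr1:82583425-82583495: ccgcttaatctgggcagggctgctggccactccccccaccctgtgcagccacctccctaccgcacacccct
The GC content was 72.7% in the first and 69.0% in the second sequence.

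Total counts were 40524694 to 40977464 per library, with TMM factors of 0.994 to 1.01. The term normalized counts stands for counts brought to the mean effective library size, and levels of different genes were compared per kb of exon. Exon length is that of all annotated exons of a gene merged, which can exceed the length of its main transcript. Replicates of a line were similar to each other across genes, with Pearson's r of 0.989 in each line, a description of the libraries only. The stem cell markers Pou5f1, Sox2, Nanog, Zfp42, Klf4, Esrrb, Tdgf1 and Dppa5a summed to 253919 and 251524 normalized counts in WT_CTCF and 250851 and 250732 in MUT_CTCF libraries. Of these, Sox2 was higher (log2 fold change 0.095, adjusted p = 0.0358) and Dppa5a lower (log2 fold change -0.099, adjusted p = 0.0157) in MUT_CTCF mESCs by edgeR's quasi-likelihood test. Sox2 passed in 5 and Dppa5a in 6 of 11 alternative settings, with adjusted p up to 0.387 and 0.586, and leaving out any 1 library ended the call of Sox2, as did any but WT_CTCF replicate 2 for Dppa5a. Of 12 fibroblast markers, collagens left out, Lum and Fap had 0 counts in all 4 libraries and Dcn had at most 6, whereas Pdgfrb had 939 to 1086, Thy1 596 to 744 and Fbn1 365 to 460 counts. Of the 5 tested, Thy1, Twist1 and Fbn1 were higher in both MUT_CTCF libraries than in both WT_CTCF libraries, as were 22.3% of all tested genes. Their log2 fold changes of 0.20, 0.45 and 0.21 did not pass. Pdgfrb (0.027) and Cdh11 (-0.38) overlapped between the lines. Acta2, which was not tested, had 1 and 2 counts in WT_CTCF and 8 and 17 in MUT_CTCF libraries. Prrx1, also not tested, had 1 and 6 counts in WT_CTCF and 1 and 0 in MUT_CTCF libraries. The 12 markers together summed to 2058 and 2173 normalized counts in WT_CTCF and 2167 and 2457 in MUT_CTCF libraries. Of 12 markers of primitive and parietal endoderm, cells that make basement membrane, the sums were 831.3 and 859.0 in WT_CTCF and 870.4 and 1102 in MUT_CTCF libraries. Of the latter list, Sox7 and Ttr had at most 4 counts and 1 count in any library, and Gata4, Amn, Pdgfra and Dab2 had 107 to 243. Gata6 had 57 and 50 counts in WT_CTCF and 99 and 108 in MUT_CTCF libraries, and Sox17 had 57 and 46 in WT_CTCF and 66 and 108 in MUT_CTCF libraries. Neither gene overlapped between the lines. Their log2 fold changes of 0.95 and 0.75 did not pass after adjustment (edgeR unadjusted p = 0.00289 and 0.0277, adjusted p = 0.0733 and 0.259). Of the 9 tested, Afp (0.14) was also higher in both MUT_CTCF libraries, and 0 were lower in both. Over all tested genes, 22.3% were higher and 22.4% lower in both. The lines did not overlap for 33.3% of the 9, against 44.6% of all tested genes. Dab2 (-0.21) and Cubn (-0.10) were lower, with overlapping libraries. Foxa2, which was not tested, had 5 and 7 counts in WT_CTCF and 2 and 0 in MUT_CTCF libraries. No member of the fibroblast or endoderm list passed, with a median log2 fold change of 0.20 over 5 and 0.30 over 9 tested markers, and their part in the collagen values was not tested. In such bulk libraries, fewer cells with a transcript and less of it per cell cannot be told apart. Ctcf itself had 18302 and 18669 normalized counts in WT_CTCF and 18790 and 19325 in MUT_CTCF libraries, a log2 fold change of 0.044 (edgeR adjusted p = 0.499) that does not separate endogenous from vector transcripts.

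Collagen counts made up 0.0498% and 0.0503% of the WT_CTCF libraries and 0.0481% and 0.0505% of the MUT_CTCF libraries. The shares overlapped between the lines. Only 5 of the 43 members lay above 159.9 normalized counts per kb, the median of all tested genes. Of the 43, 17 had a mean of at least 100 normalized counts, 17 lay between 10 and 100, and 9 were below 10. Genes at 0 counts, such as Col8a1 in all 4 libraries, can be missed by sampling up to a level of 3 counts, which is 0.0740 CPM at most, a limit for counting error alone.

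**Figure D2:**
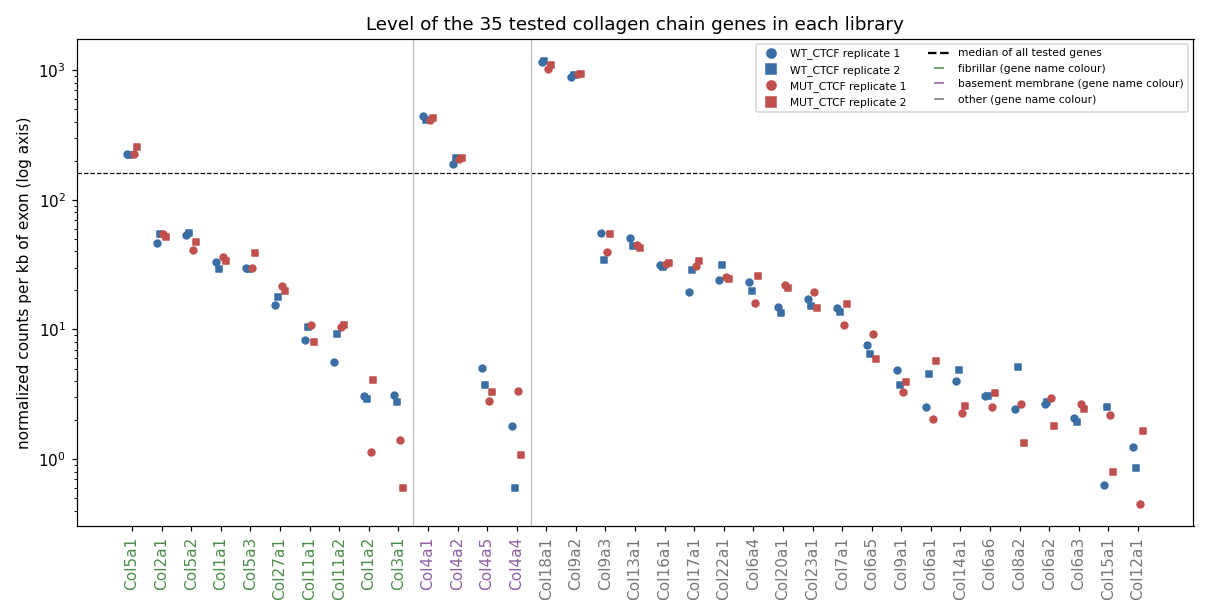
Normalized counts per kb of exon (log axis) of the 35 tested collagen chain genes in each of the 4 libraries, ordered by level within the fibrillar, basement membrane and other groups. The dashed line is the median of all tested genes (159.9 per kb), and only Col5a1, Col4a1, Col4a2, Col18a1 and Col9a2 lie above it.

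Col18a1, a multiplexin of basement membranes (chr10:76514923-76629293), stood highest, with 1158 and 1172 normalized counts per kb in WT_CTCF and 1020 and 1092 in MUT_CTCF libraries. It alone held 38.4% of the collagen counts, and its level was above that of 84.4% of all tested genes. Col9a2, a chain of the fibril-associated type IX, followed with 882.2 and 906.8 per kb in WT_CTCF and 932.1 and 934.0 in MUT_CTCF libraries. The lines did not overlap for either gene, and MUT_CTCF values were lower for Col18a1 and higher for Col9a2. Col4a1 had 441.7 and 414.0 per kb in WT_CTCF and 409.9 and 422.5 in MUT_CTCF libraries, and Col5a1, of the fibril-nucleating type V, had 225.1 and 222.8 in WT_CTCF and 224.7 and 252.9 in MUT_CTCF libraries. Col4a2, which shares 65 exon bases with Col4a1 and Gm15419 on the opposite strand, had 188.9 and 208.1 per kb in WT_CTCF and 206.4 and 210.4 in MUT_CTCF libraries. The next member in the order, Col2a1 of cartilage type II, had a mean of 51.9 per kb. Col5a2, Col9a3, Col13a1 and Col1a1 came after it, and the per-library values of Col2a1 (46.3 to 54.9) and of Col5a2 (40.7 to 55.6) overlapped, so that their order was not separated beyond the spread.

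Chains that assemble together were often unequal in RNA. Type IV heterotrimers of the common kind hold more Col4a1 than Col4a2 product, and the per-kb ratio of Col4a1 to Col4a2 was 2.16 ± 0.247 (SD, n = 2) for the WT_CTCF line, against 2.00 ± 0.0157 (SD, n = 2) for the MUT_CTCF line. Type I fibrils likewise use Col1a1 and Col1a2 products. There Col1a1 (29.5 to 36.0 per kb) exceeded Col1a2 (1.14 to 4.05 per kb) in every library, with ratios of 10.9 and 10.2 in WT_CTCF and 31.5 and 8.31 in MUT_CTCF libraries. The merged exon length was 6563 bases for Col1a1 and 12145 for Col1a2, though their coding sequences had 1453 and 1372 codons, so the size of these ratios depends on the length used. In counts, Col1a1 had 193 to 238 and Col1a2 14 to 49 per library. Type IX molecules combine the products of Col9a1, Col9a2 and Col9a3, and here Col9a1 had only 3.29 to 4.89 per kb and Col9a3 34.1 to 55.9. Col9a3 shares 234 exon bases with Tcfl5 on the opposite strand, and the strand setting of the counting is not stated.

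In type V, the per-kb ratio of Col5a1 to Col5a2 was 4.19 and 4.01 in WT_CTCF and 5.52 and 5.32 in MUT_CTCF libraries. The ratio was higher in both MUT_CTCF libraries than in both WT_CTCF libraries. Of 7 such ratios, that of Col11a1 to Col11a2 also did not overlap, in the other direction, with 1.49 and 1.13 in WT_CTCF and 1.03 and 0.736 in MUT_CTCF libraries. No test was made of these ratios, and with 2 libraries per line an exact two-sided permutation p cannot fall under 0.333. Col5a1 shares 212 exon bases with 2 genes on the opposite strand.

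Between the lines, 35 of the 43 members had enough counts for edgeR's filter and entered its quasi-likelihood test with all other such genes, 16264 in total. Adjusted p-values are Benjamini-Hochberg values of this test over the 16264 genes, and SE is the standard error of the log2 fold change. Of these 35, 18 had a log2 fold change above 0 and 17 below 0. Their median was 0.0012, compared with 0.0034 over all tested genes. By group the medians were 0.084 for 10 tested fibrillar, 0.015 for 4 type IV and -0.028 for 21 other genes. At an adjusted p under 0.05, 0 members were higher and 1 was lower (2.86% in either direction, against 3.17% of all tested genes), compared with 1.56% higher and 1.61% lower of all tested genes. Over all tested genes these were 253 higher and 262 lower, and 260 and 152 when scaled by library size only, where the count of collagens was the same. At the study's criterion, 0 were higher and 1 was lower, compared with 0.947% higher and 0.357% lower of all tested genes. At an unadjusted p under 0.05 alone, 1 was higher (Col17a1) and 3 were lower (Col18a1, Col5a2 and Col3a1), compared with 7.61% higher and 7.65% lower of all tested genes. These 4 were 11.4% of the 35, against 15.3% of all tested genes. In 9 of the 35 both MUT_CTCF libraries lay above the others and in 5 below, compared with 22.3% and 22.4% of all tested genes. These 14 were without overlap, against 44.6% of all tested genes. Of the 35, 4 (Col3a1, Col6a1, Col8a2 and Col12a1) reached the filter's minimum in both libraries of WT_CTCF mESCs only. Over all 16264 tested genes, 925 reached it in both libraries of only 1 line, whichever line that was.

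**Figure D3:**
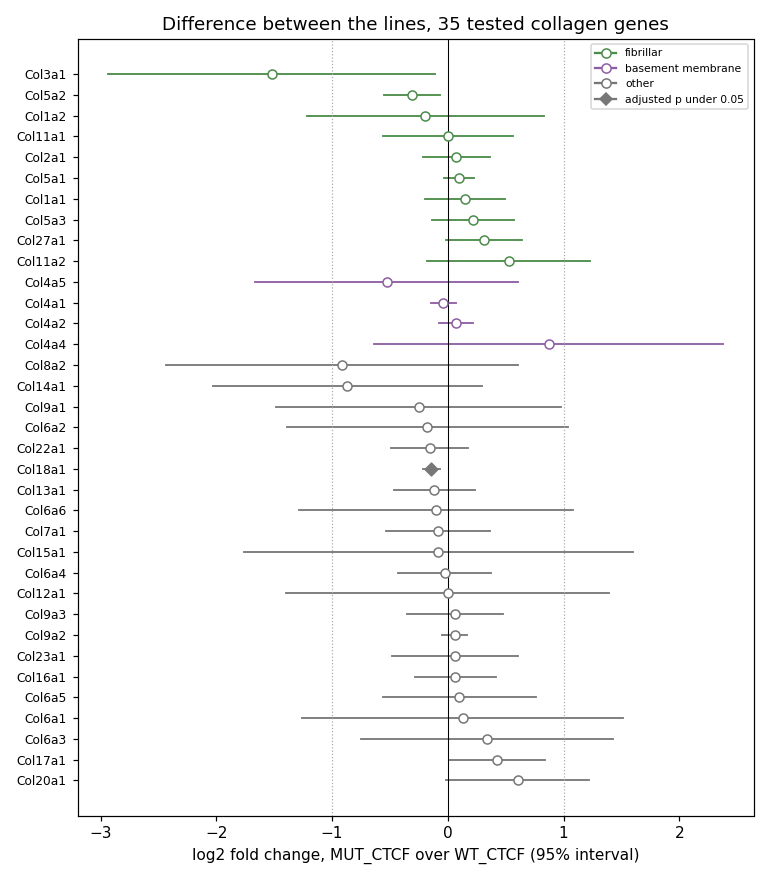
Log2 fold change of MUT_CTCF over WT_CTCF mESCs for the 35 tested collagen chain genes, with 95% intervals from edgeR's quasi-likelihood fit, coloured by group and ordered within it. The filled diamond is Col18a1 (-0.14), the 1 member with an adjusted p under 0.05, and the wide intervals belong to genes with few counts.

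Col18a1 had 8129 and 8227 normalized counts in WT_CTCF and 7158 and 7667 in MUT_CTCF libraries. Both MUT_CTCF libraries lay below both WT_CTCF libraries, and the MUT_CTCF libraries differed from each other by more than the nearest libraries of the 2 lines did. Its log2 fold change was -0.14 (SE 0.037, 95% interval -0.22 to -0.067, edgeR adjusted p = 0.0198). The adjusted p was 0.306 without a filter on low counts. With 1 library left out it ran from 0.117 to 0.448, and the log2 fold change from -0.19 without MUT_CTCF replicate 2 to -0.094 without MUT_CTCF replicate 1. Without Col18a1, the other 42 members summed to 12324 and 12368 normalized counts in WT_CTCF and to 12356 and 12907 in MUT_CTCF libraries. The sums of the lines overlapped, as did those with Col18a1 (20453 and 20596 in WT_CTCF, 19515 and 20573 in MUT_CTCF libraries).

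Among the fibrillar genes, Col5a2 had 515.8 and 533.3 normalized counts in WT_CTCF and 390.6 and 456.2 in MUT_CTCF libraries, without overlap. Its log2 fold change was -0.31 (SE 0.121, unadjusted p = 0.0136, edgeR adjusted p = 0.176), which did not pass. Col3a1, the chain of type III fibrils in elastic tissues, had 26 and 23 counts in WT_CTCF and 12 and 5 in MUT_CTCF libraries. Both MUT_CTCF libraries were lower. Col3a1 reached the filter's minimum in both libraries of WT_CTCF mESCs only. It thus entered the test through the line in which it was higher, and its call is not independent of the filter. The log2 fold change of Col3a1 was -1.52 (SE 0.705, 95% interval -2.93 to -0.11, unadjusted p = 0.0353, edgeR adjusted p = 0.288), and this call at the study's criterion was lost in DESeq2 and without WT_CTCF replicate 1, WT_CTCF replicate 2 or MUT_CTCF replicate 2. Leaving out MUT_CTCF replicate 2 brought the log2 fold change to -1.04, and leaving out MUT_CTCF replicate 1 to -2.26. Col3a1 (chr1:45368383-45406551, plus strand) and Col5a2 (chr1:45431166-45560127, minus strand) are neighbours that end towards each other, 24.6 kb apart. Both had lower values in MUT_CTCF mESCs, but neither had an adjusted p under 0.05.

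Col27a1, a fibrillar chain with a shorter helix, had 201.3 and 233.6 normalized counts in WT_CTCF and 283.5 and 257.2 in MUT_CTCF libraries. The lines did not overlap, and the log2 fold change of 0.31 did not pass (95% interval -0.014 to 0.64, edgeR adjusted p = 0.360). Col11a2 had 38 and 63 counts in WT_CTCF and 72 and 74 in MUT_CTCF libraries, without overlap, and its log2 fold change was 0.52 (edgeR adjusted p = 0.521). Col11a1, its partner in type XI, had a log2 fold change of 0.0012, with an interval from -0.56 to 0.56. The remaining tested fibrillar genes were Col5a1 (0.092), Col2a1 (0.075), Col1a1 (0.15), Col5a3 (0.22) and Col1a2 (-0.19), all of them log2 fold changes that did not pass. Col1a2 had 14 and 49 counts in the MUT_CTCF libraries, so that these replicates lay on both sides of the WT_CTCF libraries with 37 and 35. Col24a1 had 5 to 11 counts per library and was not tested.

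The major type IV genes differed by less than their spread. Col4a1 had 3012 and 2823 normalized counts in WT_CTCF and 2795 and 2881 in MUT_CTCF libraries, and Col4a2 had 1250 and 1377 in WT_CTCF and 1366 and 1393 in MUT_CTCF libraries. The lines overlapped for both genes. The 95% interval of the log2 fold change was -0.15 to 0.068 for Col4a1 and -0.080 to 0.22 for Col4a2. Col4a5 had 34 and 25 counts in WT_CTCF and 19 and 22 in MUT_CTCF libraries (log2 fold change -0.53, edgeR adjusted p = 0.744). Col4a4 had 15 and 5 counts in WT_CTCF and 28 and 9 in MUT_CTCF libraries, with more spread within each line than between them. Its pair Col4a3 had 4 counts or fewer and Col4a6 had 5 or 6 in each library, and neither was tested. For Col4a4 and Col4a5, whose chains belong to the specialised networks of kidney and other tissues, the 95% interval of the fold change reached beyond 2-fold.

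**Figure D4:**
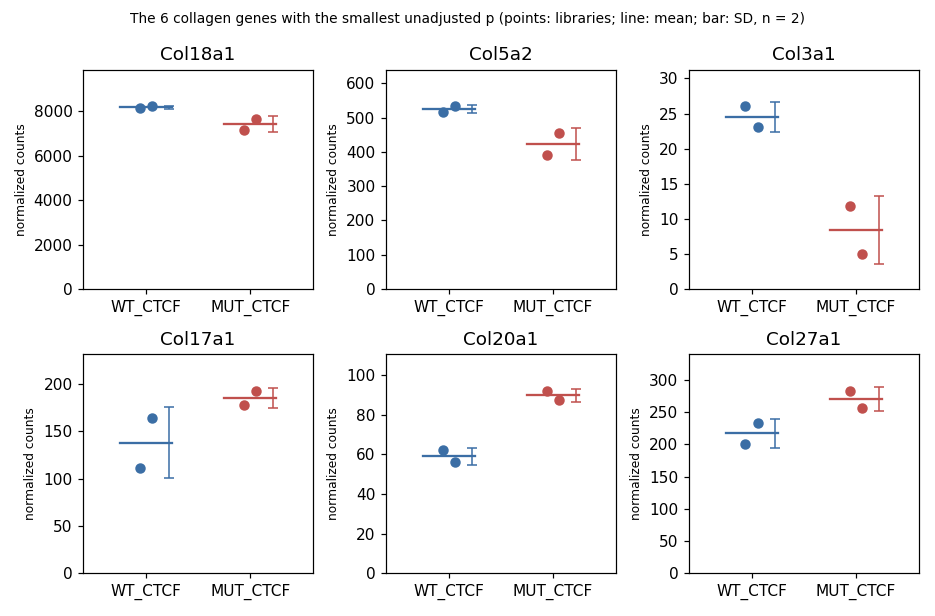
Normalized counts of Col18a1, Col5a2, Col3a1, Col17a1, Col20a1 and Col27a1, the 6 collagen genes with the smallest unadjusted p, in each library (points), with the mean (line) and SD (bar, n = 2 per line). The lines do not overlap in any of the 6, which is largely set by picking genes by p. Without overlap were 40% of the tested members and 44.6% of all tested genes. MUT_CTCF values are lower for the first 3 and higher for the other 3, and only Col18a1 has an adjusted p under 0.05.

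Among the other collagens, the fibril-associated (FACIT) genes had 8 tested of 9 members and 0 calls by either rule. Col9a2 had a log2 fold change of 0.061 with an interval from -0.047 to 0.17. Col20a1 had 62 and 56 counts in WT_CTCF and 93 and 87 in MUT_CTCF libraries. The lines did not overlap, and the log2 fold change was 0.60, which did not pass (95% interval -0.017 to 1.22, edgeR adjusted p = 0.347). Col14a1 had 28 and 34 counts in WT_CTCF and 16 and 18 in MUT_CTCF libraries, and its log2 fold change was -0.87 (edgeR adjusted p = 0.523), likewise without overlap. Col16a1 and Col22a1 had log2 fold changes of 0.065 and -0.16, and Col9a3, Col9a1 and Col12a1 of 0.061, -0.25 and -0.0020. In Col19a1, 6 counts in WT_CTCF replicate 2 were all that was seen.

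Of the transmembrane collagens, Col17a1, a component of hemidesmosomes, had 111 and 164 counts in WT_CTCF and 179 and 192 in MUT_CTCF libraries. The MUT_CTCF libraries were higher, but the WT_CTCF libraries differed more from each other than the nearest libraries of the 2 lines did. The log2 fold change of Col17a1 was 0.43 (SE 0.208, unadjusted p = 0.0452, edgeR adjusted p = 0.319). Leaving out WT_CTCF replicate 1 moved it to 0.17, and leaving out WT_CTCF replicate 2 moved it to 0.74. Col13a1 and Col23a1 did not pass, at log2 fold changes of -0.12 and 0.061, and Col25a1 had 9 counts or fewer and was not tested.

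The 6 genes of type VI, which forms beaded filaments around cells, were all tested, and 0 passed by either rule. The most abundant was Col6a4, with 197 and 168 counts in WT_CTCF and 138 and 221 in MUT_CTCF libraries, which overlapped. Col6a4, Col6a5 and Col6a6 lie in a row on the minus strand of chromosome 9 with gaps of 28.8 and 28.0 kb, and their log2 fold changes were -0.028, 0.099 and -0.10. The chains of the classical heterotrimer, Col6a1, Col6a2 and Col6a3, had 9 to 32 counts per library and log2 fold changes of 0.13, -0.18 and 0.34. Col7a1, the chain of anchoring fibrils, had a log2 fold change of -0.087 with overlapping libraries. Col15a1, the other multiplexin, had 4 to 16 counts per library, against 7221 to 8208 for Col18a1. Col8a2 had 11 and 23 counts in WT_CTCF and 12 and 6 in MUT_CTCF libraries (log2 fold change -0.92, edgeR adjusted p = 0.638), and Col10a1 and Col28a1, with at most 4 and 18 counts, were not tested.

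The count behind a gene set how far its difference could be bounded. Of the 17 members with at least 100 mean normalized counts, 15 had a 95% interval within a 1.5-fold change in either direction. Over all 35 tested members, the interval of 15 reached beyond a 2-fold change.

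The genes that act on collagen chains were then set beside the chains themselves, in lists of enzymes, receptors and partners. These lists were chosen with earlier results of these data known. The share of called genes in a list is therefore a description and cannot show enrichment. Of 24 listed genes for hydroxylation, folding and secretion, 23 were found and 21 tested, of which 2 rose and 0 fell at an adjusted p under 0.05 (9.52% of the list, against 3.17% of all tested genes). These were P4ha1 and P4ha2, which encode catalytic subunits of prolyl 4-hydroxylases, enzymes that stabilise the triple helix by hydroxylating proline. P4ha1 had 1140 and 1055 counts in WT_CTCF and 1477 and 1458 in MUT_CTCF libraries, a log2 fold change of 0.41 (SE 0.076, edgeR adjusted p = 0.000297). P4ha2 had 1081 and 1026 counts in WT_CTCF and 1476 and 1521 in MUT_CTCF libraries, a log2 fold change of 0.50 (SE 0.076, edgeR adjusted p = 7.89e-06). In each of these genes the lowest MUT_CTCF value exceeded the highest WT_CTCF value. Without a filter on low counts, neither passed, with adjusted p of 0.110 and 0.0566. Without MUT_CTCF replicate 1 the adjusted p of P4ha1 and P4ha2 was 0.300 and 0.187, and without MUT_CTCF replicate 2 it was 0.272 and 0.225. The median of the 21 tested genes was 0.0063, near that of all tested genes. At the study's criterion, 1 of the 21 was higher, Glt25d2, and 0 were lower. Over all tested genes, 0.947% were higher and 0.357% lower at this criterion. Glt25d2 had 28 and 19 counts in WT_CTCF and 43 and 58 in MUT_CTCF libraries (log2 fold change 1.10, edgeR adjusted p = 0.241). P4ha3 of the same list was not tested, with 2 and 1 counts in WT_CTCF and 10 and 12 in MUT_CTCF libraries.

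Of 14 genes for propeptide processing and cross-linking, 12 were tested. Loxl2, a lysyl oxidase that cross-links collagen, rose while 0 fell at an adjusted p under 0.05 (8.33% of the list, resting on 1 gene, against 3.17% of all tested genes). At the study's criterion, 1 was higher, Loxl2, and 1 was lower, Tll1. Tll1 had 13 and 22 counts in WT_CTCF and 2 and 7 in MUT_CTCF libraries (log2 fold change -1.93, edgeR adjusted p = 0.255). Tll1 reached the filter's minimum in WT_CTCF libraries only, so it entered the test through the line in which it was higher. Its call is not independent of the filter. Of the 12 tested genes, 2 reached this minimum in both libraries of only 1 line. Loxl2 had 384 and 316 counts in WT_CTCF and 902 and 834 in MUT_CTCF libraries, a log2 fold change of 1.30 (SE 0.112, edgeR adjusted p = 3.48e-13). When MUT_CTCF replicate 1 or MUT_CTCF replicate 2 was left out, the adjusted p of Loxl2 became 0.0651 or 0.0723, and it did not pass. Of 16 genes for collagen breakdown, 13 were tested and 1 rose (7.69%), the lysosomal protease gene Ctsb, by a log2 fold change of 0.16 (SE 0.036, edgeR adjusted p = 0.00401). Ctsb shares 769 exon bases with Fdft1 on the opposite strand. The adjusted p of Ctsb was 0.154 without a filter and 0.0644 to 0.300 with 1 library left out.

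Of 10 collagen receptor genes, 5 were tested and 0 passed. Itgb1, the integrin beta chain shared by the collagen-binding integrins, and Ddr1, a receptor kinase for collagen, were the most abundant per kb, with log2 fold changes of 0.10 and 0.043. Of the 18 basement membrane partners of type IV, 17 were tested and 0 passed. The laminin gene Lamc1 had 39687 and 39668 counts in WT_CTCF and 40993 and 41036 in MUT_CTCF libraries, and Sparc, a collagen-binding matrix protein gene, had 14639 and 14469 in WT_CTCF and 14183 and 13284 in MUT_CTCF libraries. The lines did not overlap for either gene, and the log2 fold changes of 0.042 and -0.090 did not pass (edgeR adjusted p = 0.404 and 0.108). Median log2 fold changes were 0.0032 in the partner list, 0.066 in the receptor list, 0.107 in the processing and cross-linking list and 0.156 in the breakdown list, compared with 0.0034 over all tested genes.

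**Figure D5:**
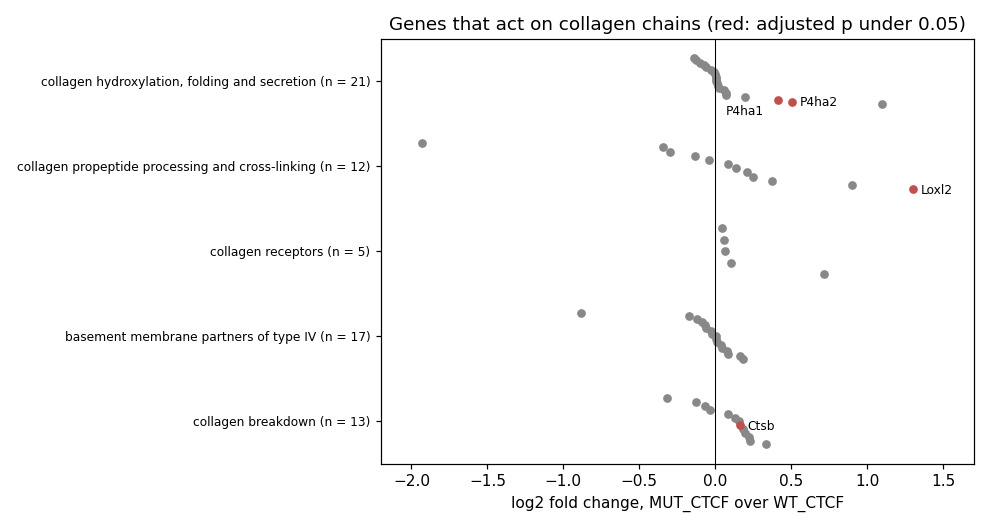
Log2 fold change of MUT_CTCF over WT_CTCF mESCs for each tested gene of 5 lists that act on collagen chains (n is the number tested), with genes at an adjusted p under 0.05 in red and named. P4ha1 (0.41), P4ha2 (0.50), Loxl2 (1.30) and Ctsb (0.16) lie to the right of 0, and no gene of the receptor or partner lists passed.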

How the data were processed

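RNA-seq counts of 4 libraries, 2 for each line, were used. According to the study's methods and the submitters' processing notes, the authors trimmed reads with Trim Galore 0.4.4, used STAR for alignment to mm9, and deposited raw counts of uniquely mapped reads per gene from HTSeq 0.9.1, in which reads on overlapping genes may be lost. The annotation version and the strand setting are not given in the sources used here. The authors' table of their edgeR comparison (log2 fold changes, mean expression, p-values and false discovery rates) was not used.

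Genes were named and placed with GENCODE M1 (NCBIM37, mm9), which matched 37205 of 37620 identifiers. Genes were kept by filterByExpr (minimum count 10), which left 16264 genes with 99.96% of the counts, scaled by TMM and tested with glmQLFit and glmQLFTest in edgeR 4.0.16 (R 4.3.3), and p-values were adjusted by Benjamini-Hochberg. The standard error is the log2 fold change divided by the root of F, and 95% intervals use the fit's degrees of freedom. Replicates were called biological by the study, and each mean ± SD is over 2 libraries. The study's criterion (p under 0.05, fold change above 2) and an adjusted p under 0.05 were the call rules. The members and all gene lists were chosen with earlier results of these data known. Named were every member, Ctcf and, from each partner list, the genes with an adjusted p under 0.05 (up to the 4 with the smallest p) or otherwise the 2 most abundant per kb. Glt25d2 and Tll1 were named for their calls at the study's criterion, and P4ha3 beside P4ha1 and P4ha2. Marker genes were named as checks, and other genes only because they share exon bases with a named gene.

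Alternatives were DESeq2 1.42.0, DESeq2's size factors, library size only, edgeR's exact test, no filter, a minimum of 10 reads in all libraries, the replicate number as a block, each library left out, a fold limit of 1.5, and a fold limit of 2 on adjusted calls. With 1 library left out, the lone library of a line was assumed to vary like the other line. The script was tested on simulated data. Coding runs were read from the longest complete coding sequence per gene.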

Additional observations from a re-analysis of the deposited data

How the results depend on the processing

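Each count of lower collagens rested on 1 gene and moved with the processing, and the cause was not tested. The counts of higher collagens were 0 in every setting. The 1 lower member at an adjusted p under 0.05 (Col18a1) was called in 6 of 11 alternatives, with adjusted p from 0.00444 to 0.448. The count was 0 without a filter and 0 to 0 with each library left out. The 1 lower member at the study's criterion (Col3a1) was 0 in DESeq2, 0 with at least 10 reads required in every library, which removes Col3a1 itself, 0 with an adjusted p and a fold above 2, and 0 to 1 with each library left out. The median log2 fold change of all collagens was 0.062 with at least 10 reads in every library and ran from -0.017 to 0.062 with a library left out.

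Over all genes, 253 higher and 262 lower at an adjusted p under 0.05 became 141 and 161 in DESeq2, 26 and 3 without a filter, 6 to 142 and 0 to 102 with a library left out, and 152 lower with library size only. The 154 higher and 58 lower at the study's criterion became 96 and 30 in DESeq2, 82 and 35 with at least 10 reads in every library, and 100 to 208 and 48 to 95 with a library left out. The cause was not tested.

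The log2 fold change turned in sign for Col11a1 without a filter (-0.00015) and with the replicate block (-0.0030), and for Col12a1 with library size only (0.0094). With a library left out it ran from -0.23 to 0.20 for Col11a1, -1.19 to 0.64 for Col12a1, -0.79 to 0.69 for Col6a1, -0.58 to 0.13 for Col6a2, -0.42 to 0.28 for Col6a4, -0.25 to 0.38 for Col6a5, -0.29 to 0.065 for Col6a6, -0.042 to 0.20 for Col2a1, -0.39 to 0.16 for Col7a1, -0.25 to 0.46 for Col9a3, -0.98 to 1.21 for Col15a1, -1.37 to 0.45 for Col1a2, -0.086 to 0.0077 for Col4a1, -0.16 to 0.25 for Col23a1, -0.15 to 1.85 for Col4a4, -0.34 to 0.052 for Col22a1, -0.019 to 0.11 for Ddr1, -0.093 to 0.14 for Pdgfrb and -0.084 to 0.24 for Amn. None of these was called. In all, 347 of the collagen values kept direction and call, 27 turned and 5, all of Col18a1, lost the call.

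Replicate numbers of the lines did not pair the libraries (correlation of their differences -0.019 over 16264 genes, with only 2 pairs). With the replicate block, 326 genes were higher and 372 lower, and the collagen counts were 0 and 1, with an adjusted p of 0.00444 for Col18a1.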
